A study of Mus musculus with 8 samples.

Results

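Expression of 10 genes of protein folding in the endoplasmic reticulum (ER) was followed through ribosome-bound mRNA of the mouse spinal cord: Hspa5, Hsp90b1, Calr, Canx, Dnajb9, Creld2, Pdia3, Pdia4, Pdia6 and Xbp1. They were chosen by name, as ER chaperones and genes of the unfolded protein response, and are 10 of the 38924 genes in the deposited tables. They and the gene lists used below were chosen with earlier results of these data known. Shares called among them are therefore not blind comparisons with all genes. All 10 had enough counts to be tested. The samples were 8 whole spinal cords, 1 library each, from mice carrying 1 RiboTag allele of the ribosomal protein gene Rpl22 (Rpl22 +/- in every group) on a mixed background labelled B6.CgxB6.129. Cre recombinase adds an HA tag to the protein made from this allele, and an antibody to HA then pulls down the ribosomes with their mRNA. Cre was driven by Chat, the gene for the enzyme that makes acetylcholine, so that in the cord the tag is placed in cholinergic cells, motor neurons among them. Mice without Cre, called controls in the titles, show what the antibody and beads bring down without a tag. There were 2 mice in each of 4 groups: Cre uncrushed (animals 10 and 3, aged 8 weeks), Cre crushed (animals 35 and 52, aged 18 and 9 weeks), no-Cre uncrushed (animals 4 and 6, aged 8 weeks) and no-Cre crushed (animals 51 and 58, aged 9 weeks). Crush means a unilateral crush of the sciatic nerve, whereas the whole cord was taken, so motor neurons of the uninjured side and of other levels are in the same sample. How long after crush the cords were taken was not given in the sources used here. The study asked which mRNAs are on motor neuron ribosomes after nerve crush.

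Secreted and membrane proteins are folded in the ER. When unfolded protein builds up there, sensors in the ER membrane (IRE1, PERK and ATF6) start the unfolded protein response. IRE1 splices the Xbp1 mRNA, whose spliced form encodes an active transcription factor, and ATF6 is cut to release another. Together they raise the genes of chaperones, oxidoreductases and the degradation machinery, while PERK slows translation. Motor neurons make large amounts of membrane protein for long axons and are a cell type in which this response has been studied in disease and after axon injury. The counts here are per gene, so spliced and unspliced Xbp1 mRNA are not separated.

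Library totals ran from 4826979 to 11522721 expected counts, and 3 counts, taken as the detection floor, stood for 0.19 to 1.17 CPM (counts scaled to a common library depth) depending on the library. The lowest count of any of the 10 genes was 18, for Dnajb9 in no-Cre uncrushed animal 4, so none was near that floor. Mitochondrially encoded genes took 2.26 to 8.65% of the counts in the Cre libraries and 21.61 to 59.83% in the no-Cre libraries. The genotype entry contradicts the title for 2 uncrushed libraries, animal 3 with Cre and animal 4 without, and the titles were followed here. Summed levels of 8 motor neuron markers were between 7200 and 8620 CPM in uncrushed mice with Cre and between 994 and 1640 CPM in those without, so in both contradictory libraries they went with the title. For the 10 genes, the uncrushed values and the range of the crush values are also given without these libraries. The same holds for some of the other genes named. Such fits keep 1 library in each uncrushed group, whose spread is assumed to be that of the crushed groups, so their p-values rest on the spread between crushed animals alone. Crush cannot be told apart from age, or from a number that all uncrushed titles share. Within a group, age differs only between Cre crushed animals 35 and 52. Age as a covariate thus sets animal 35 apart, much as leaving it out does, and is no separate check.

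Per unit of gene length, the lectin Canx (calnexin) and Hsp90b1 were the most abundant of the 10 in every library: each ranked 1 or 2 by TPM, the length-scaled share of transcripts. Calr (calreticulin) and Hspa5 ranked 3 or 4, and Pdia3 ranked 5 or 6. In Cre uncrushed animal 10 Canx stood at 419 TPM, Hsp90b1 at 198, Calr at 184, Hspa5 at 122 and Pdia3 at 62.6 TPM. Animal 3 had the same order, at 417, 286, 219.6, 205 and 103 TPM. Over the 8 libraries Canx exchanged places with Hsp90b1, and Calr with Hspa5. The gap between Canx and Hsp90b1 depends on the deposited gene length, which varied between libraries for Canx. In animal 10 it was 1628 bases for Canx and 2834 for Hsp90b1, and their CPM, which leave length out, were 429 and 370. In Cre crushed animal 35, with a Canx length of 3438 bases, Hsp90b1 was at 332 and Canx at 237 TPM. The other 5 genes also exchanged places between libraries. In animals 10 and 3 Dnajb9 was at 38.9 and 55.1 TPM, Pdia6 at 22.9 and 23.0, Pdia4 at 18.5 and 22.5, Xbp1 at 15.0 and 25.2 and Creld2 at 8.69 and 9.86 TPM. TPM values were ordered only within a library, since their scale moves with the mitochondrial share. All levels below are CPM scaled by the trimmed mean of M-values (TMM), which compare 1 gene between libraries.

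**Figure D1:**
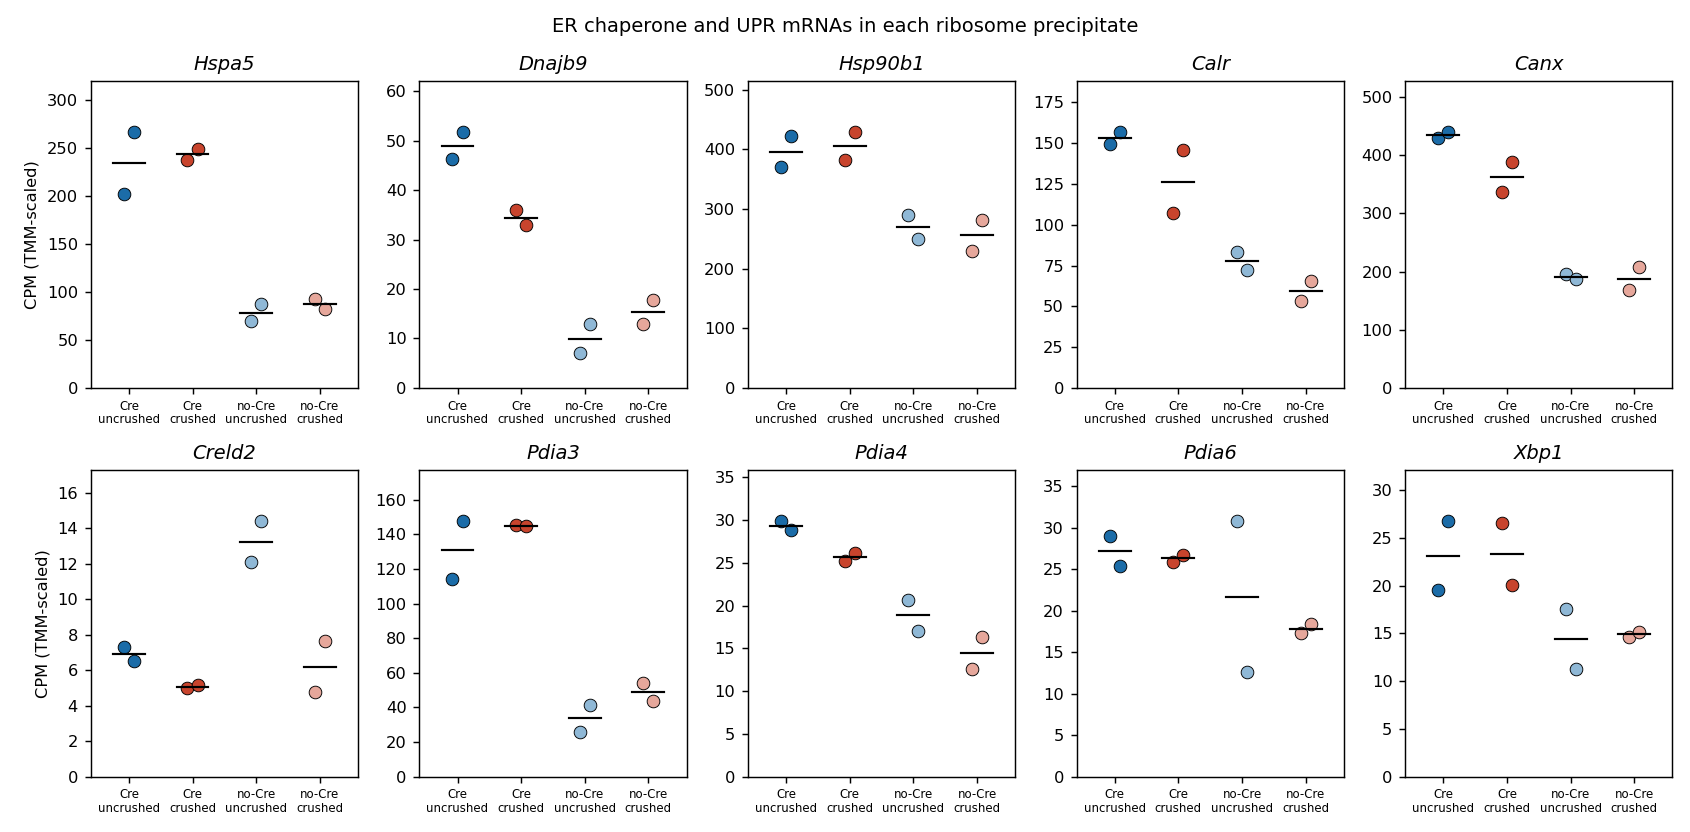
Level of each gene in each of the 8 libraries (vertical axis, TMM-scaled CPM from 0, 1 panel per gene); points are single animals, 2 per group, and lines are group means. Hspa5, Dnajb9, Hsp90b1, Calr, Canx, Pdia3, Pdia4 and Xbp1 have all 4 Cre points above all 4 no-Cre points, Pdia6 has 1 high no-Cre point at 30.8 CPM, and Creld2 has its 2 highest points in the no-Cre uncrushed group. The share of all genes separated in this way was not counted, so the separation is not shown to be particular to these genes. Of all genes, 59.9% were called between the arms over all libraries. Both Cre libraries lay above both no-Cre libraries for 36.2% of all genes in uncrushed and 37.9% in crushed mice.

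The promoters of several of these genes share a sequence that is named for the ER stress response. The genes were chosen as genes of that response, so the frequency of the sequence among them is not independent of the choice. The ER stress response element (ERSE) consists of CCAAT and CCACG with 9 bases between them, and the general factor NF-Y binds CCAAT while ATF6 or spliced XBP1 binds CCACG. Of the 10 genes, all matched by symbol in the RefSeq promoter table (build GRCm38.p6), 6 held this motif on either strand within the 250 bases before the annotated start: Hspa5, Hsp90b1, Calr, Canx, Creld2 and Pdia6. The motif was in 37 of all 32851 promoters listed there, or 0.113%. Hsp90b1 held 2 copies. The matches are printed because they are what these promoters have in common, with the ERSE letters in capitals, either as CCAAT to CCACG or, on the other strand, as CGTGG to ATTGG. The Hspa5 sequence is the whole window at chr2:34771840-34772089 (+ strand), with the motif 65 to 47 bases before the start. That of Hsp90b1 is chr10:86705518-86705671 (- strand) and spans both copies. The others are the motif with 15 bases on each side: Calr chr8:84847060-84847108 (- strand), Canx chr11:50325785-50325833 (- strand), Creld2 chr15:88819505-88819553 (+ strand) and Pdia6 chr12:17266476-17266524 (+ strand). All are written 5′ to 3′ in the direction of the gene.
Hspa5: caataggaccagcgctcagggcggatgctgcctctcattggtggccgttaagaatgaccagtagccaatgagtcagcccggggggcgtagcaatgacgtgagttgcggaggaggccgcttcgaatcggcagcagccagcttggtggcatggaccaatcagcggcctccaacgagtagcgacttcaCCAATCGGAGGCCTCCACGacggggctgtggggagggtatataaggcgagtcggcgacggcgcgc
Hsp90b1: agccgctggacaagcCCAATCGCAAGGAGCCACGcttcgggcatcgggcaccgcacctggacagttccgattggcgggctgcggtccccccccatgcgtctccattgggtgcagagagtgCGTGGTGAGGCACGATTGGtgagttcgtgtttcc
Calr: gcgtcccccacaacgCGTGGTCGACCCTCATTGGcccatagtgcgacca
Canx: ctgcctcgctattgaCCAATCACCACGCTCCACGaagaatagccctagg
Creld2: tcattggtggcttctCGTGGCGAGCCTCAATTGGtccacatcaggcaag
Pdia6: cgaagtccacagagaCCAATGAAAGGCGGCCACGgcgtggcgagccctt

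No ERSE was found in the same window of Dnajb9, Pdia3, Pdia4 or Xbp1. The related ERSE-II, ATTGG and CCACG with 1 base between them, was in 0 of the 10 and in 0.0304% of all promoters, and the core of the element bound by XBP1, TGACGTGG, was in 0 of the 10 and in 0.563%. The parts of the ERSE are common by themselves. CCAAT was in 9 of the 10 promoters and in 33.8% of all, and CCACG in 7 of the 10 and in 28.3% of all, and every ERSE holds 1 of each. A match describes letters in a window and is not a measured binding site.

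In uncrushed cord, ER chaperone mRNAs were higher on tagged ribosomes than in the no-Cre precipitates for 5 of the 10 genes and lower for 0, at an adjusted p under 0.05 (edgeR quasi-likelihood test, Benjamini-Hochberg over 15208 genes). Among all genes 20.6% were called higher, 21.9% lower and 42.5% in either direction. The 5 were the ER Hsp70 Hspa5, its J-domain partner Dnajb9, the lectins Calr and Canx, and Pdia3, the oxidoreductase that works with those lectins. Their differences ran from 1.97-fold for Calr to 4.82-fold for Dnajb9. The median log2 fold change of the 10 was 0.84, against -0.03 over all genes. In crushed cord 7 were higher and 0 lower, beside 21.6% of all genes called higher, 21.3% lower and 42.9% in either direction. Hsp90b1 and Pdia4 joined the 5, with a median over the 10 of 0.89 against -0.08 over all genes. The count of 7 fell to 3 without Cre crushed animal 52. It fell to 4 without Cre crushed animal 35, without no-Cre crushed animal 51 or with age as a covariate. The 6521 genes called in all then fell to 4250, 2733, 4041 and 2758 in the same order. The fit with age is much the same as leaving out animal 35, so these are not separate losses. With the uncrushed libraries grouped by genotype entry, 0 genes were called in either state. The crushed groups hold the same libraries under that grouping, and the median of the 10 there stayed at 0.89. Their calls were lost through the spread, which 1 fit shares over all groups. The uncrushed and crushed comparisons use different animals, and each p measures the spread between single mice.

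Hspa5 (ENSMUSG00000026864) encodes BiP, the Hsp70 chaperone of the ER lumen, which binds unfolded chains and holds the stress sensors inactive. Its level was 202 and 267 CPM in animals 10 and 3 (Cre uncrushed), 238 and 249.5 in Cre crushed animals 35 and 52, 69.4 and 87.3 in no-Cre uncrushed animals 4 and 6, and 92.3 and 82.1 in no-Cre crushed animals 51 and 58. The lowest Cre library was thus above the highest no-Cre library. The log2 fold change of Cre over no-Cre was 1.58 ± 0.24 (approximate SE, n = 2 against 2) in uncrushed mice (edgeR adjusted p = 0.000599) and 1.48 ± 0.24 in crushed mice (edgeR adjusted p = 0.0008). Without the contradictory libraries the uncrushed value was 1.25 (edgeR adjusted p = 0.0347).

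Dnajb9 (ENSMUSG00000014905), also called ERdj4, is a J-domain co-chaperone of BiP that is linked to disposal of misfolded protein and to control of IRE1. It stood at 46.2 and 51.7 CPM in animals 10 and 3 of the Cre uncrushed group, at 35.9 and 32.9 in the Cre crushed ones (35 and 52), at 7.02 and 12.8 in the no-Cre uncrushed ones (4 and 6) and at 12.9 and 17.8 in the no-Cre crushed ones (51 and 58). All Cre values were above all no-Cre values, and the order of uncrushed and crushed differed between the arms. The log2 fold change was 2.27 ± 0.32 in uncrushed mice (edgeR adjusted p = 0.00038), the highest of the 10. In crushed mice it was 1.17 ± 0.29 (edgeR adjusted p = 0.00861), and that call was lost without Cre crushed animal 35 (edgeR adjusted p = 0.0636), without no-Cre crushed animal 51 (0.0611) and with age as a covariate (0.0671). Without the contradictory libraries the uncrushed value was 1.89 (edgeR adjusted p = 0.0184).

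Hsp90b1 (ENSMUSG00000020048) encodes the Hsp90 chaperone of the ER, which completes folding of a narrower set of clients that includes integrins. Its levels were 370.1 and 421.5 CPM (Cre uncrushed 10 and 3), 382 and 429 (Cre crushed 35 and 52), 289.7 and 249 (no-Cre uncrushed 4 and 6) and 230.2 and 282 (no-Cre crushed 51 and 58). Every Cre library was above every no-Cre library, by less than for Hspa5. The log2 fold change was 0.56 ± 0.23 in uncrushed mice (edgeR adjusted p = 0.0755, interval 0.04 to 1.07) and 0.66 ± 0.23 in crushed mice (edgeR adjusted p = 0.0397). The crushed call was lost without either Cre crushed animal (edgeR adjusted p = 0.125 without 35 and 0.179 without 52), without no-Cre crushed animal 51 (0.122), without Cre uncrushed animal 10 (0.0552) or 3 (0.0554), with age as a covariate (0.131) and with scaling by library size alone (0.0619). The uncrushed value passed the threshold with DESeq2 (DESeq2 adjusted p = 0.0499), with library size alone (edgeR adjusted p = 0.00715), without the mitochondrially encoded genes (0.0451) and without no-Cre crushed animal 51 (0.0372) or 58 (0.0326). It was 0.62 without the contradictory libraries (edgeR adjusted p = 0.24). Exons of Hsp90b1 overlap those of 1810014B01Rik on the opposite strand by 415 bases in the GENCODE annotation given here, and the strand setting of the counting was not given in the sources used here. Opposite-strand exons also overlap by 50 bases between Pdia6 and Atp6v1c2, by 18 bases between Pdia3 and Catsper2 and by 14 bases between Dnajb9 and Mir5627. On the same strand, exons of Hsp90b1 overlap those of Gm25745 by 133 bases and those of Gm15344 by 63 bases. Exons of Pdia4 overlap Mir704 by 14 bases on the same strand. The effect of these overlaps on the counts was not tested.

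Calr (ENSMUSG00000003814) and Canx (ENSMUSG00000020368) encode calreticulin and calnexin, the soluble and membrane-bound lectins that hold glycoproteins while their sugars are trimmed. Calr was at 149.6 and 157 CPM with Cre and no crush, 107 and 146 with Cre and crush, 83.4 and 72.4 without Cre or crush, and 53.3 and 65.8 without Cre and with crush, in the animal order used above. Canx was at 429 and 439.5, 336 and 387.5, 195 and 187.5, and 167 and 208 CPM in the same order. For both lectins the arms did not overlap. The log2 fold changes of Calr were 0.98 ± 0.24 in uncrushed mice (edgeR adjusted p = 0.00768) and 1.09 ± 0.24 in crushed mice (0.00435), and those of Canx were 1.18 ± 0.23 (0.00224) and 0.95 ± 0.23 (0.00709). Without the contradictory libraries Calr in uncrushed mice was at 1.09 but no longer called (edgeR adjusted p = 0.07), while Canx was at 1.24 (0.0462). Without Cre crushed animal 52 neither passed in crushed mice (edgeR adjusted p = 0.0509 for Calr and 0.0589 for Canx).

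The protein disulfide isomerases form and reshuffle disulfide bonds in folding chains. Pdia3 (ENSMUSG00000027248), which is brought to glycoproteins by the lectins, was at 114 and 148 CPM (Cre uncrushed 10 and 3), 145.2 and 144.5 (Cre crushed 35 and 52), 25.7 and 41.4 (no-Cre uncrushed 4 and 6) and 54.0 and 43.8 (no-Cre crushed 51 and 58). Its log2 fold change was 1.95 ± 0.28 in uncrushed mice (edgeR adjusted p = 0.000388), 1.57 ± 0.27 in crushed mice (0.00107) and 1.50 in uncrushed mice without the contradictory libraries (0.0234). It had no overlap between the arms and, of the 10 genes, the highest value in crushed mice. Pdia4 (ENSMUSG00000025823), an isomerase with an additional active site that is found in complexes with BiP, was at 29.9 and 28.8, 25.2 and 26.1, 20.7 and 17.1, and 12.6 and 16.3 CPM in the same order. Its Cre libraries were all above its no-Cre libraries, with 0.64 ± 0.27 in uncrushed mice (edgeR adjusted p = 0.0707, interval 0.06 to 1.23) and 0.83 ± 0.26 in crushed mice (0.0242). Like that of Hsp90b1, the crushed call of Pdia4 was lost without animal 35 (edgeR adjusted p = 0.117), 51 (0.116) or 52 (0.107), with age as a covariate (0.121) and with library size alone (0.0504). The uncrushed value of Pdia4 was past the threshold with library size alone (edgeR adjusted p = 0.0118), without the mitochondrially encoded genes (0.0493) and without no-Cre crushed animal 51 (0.0481) or 58 (0.0444). Without the contradictory libraries it was 0.85 (edgeR adjusted p = 0.129).

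Pdia6 (ENSMUSG00000020571), an isomerase that also binds the stress sensors, did not pass the test in either state. Its levels were 29.0 and 25.4 CPM (Cre uncrushed 10 and 3), 25.9 and 26.7 (Cre crushed 35 and 52), 30.8 and 12.55 (no-Cre uncrushed 4 and 6) and 17.2 and 18.3 (no-Cre crushed 51 and 58). No-Cre uncrushed animal 4, a library with a contradictory entry, was above every Cre library, and the other 3 no-Cre libraries were below all of them. The log2 fold change was 0.35 ± 0.36 in uncrushed mice (edgeR adjusted p = 0.444, interval -0.43 to 1.14) and 0.56 ± 0.34 in crushed mice (0.202, interval -0.19 to 1.32). The uncrushed value turned on the 2 no-Cre animals: it was 1.15 and called without animal 4 (edgeR adjusted p = 0.0155), and -0.11 without animal 6 (0.76). Without both contradictory libraries it was 1.25 (edgeR adjusted p = 0.0406), and with library size alone 1.11 (0.0422). The crushed value passed without no-Cre uncrushed animal 4 (edgeR adjusted p = 0.0399) or 6 (0.0379).

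Creld2 (ENSMUSG00000023272), an ER-resident and partly secreted protein known to be induced by ER stress, was the 1 gene of the 10 with a negative value. It was at 7.29 and 6.53 CPM (Cre uncrushed 10 and 3), 5.00 and 5.14 (Cre crushed 35 and 52), 12.1 and 14.4 (no-Cre uncrushed 4 and 6) and 4.75 and 7.66 (no-Cre crushed 51 and 58). Both no-Cre uncrushed libraries were above all 6 others, while the crushed groups overlapped. The log2 fold change of Cre over no-Cre was -0.95 ± 0.38 in uncrushed mice (edgeR adjusted p = 0.0638, interval -1.78 to -0.11) and -0.28 ± 0.38 in crushed mice (0.564, interval -1.11 to 0.54). Without no-Cre crushed animal 58 the crushed value was 0.14, and without the contradictory libraries the uncrushed value was -0.94 (edgeR adjusted p = 0.202). These levels rest on 31 to 79 counts a library, so counting error alone is 11.3 to 18% of each value.

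Xbp1 (ENSMUSG00000020484) encodes the transcription factor of the IRE1 branch. It stood at 19.5 and 26.8 CPM (Cre uncrushed 10 and 3), 26.5 and 20.1 (Cre crushed 35 and 52), 17.55 and 11.2 (no-Cre uncrushed 4 and 6) and 14.7 and 15.2 (no-Cre crushed 51 and 58). The Cre libraries were all above the no-Cre libraries by small margins. The log2 fold change was 0.71 ± 0.32 in uncrushed mice (edgeR adjusted p = 0.0973, interval 0 to 1.41) and 0.65 ± 0.31 in crushed mice (0.107, interval -0.02 to 1.31), past the threshold in neither. In uncrushed mice it was called with library size alone (1.44, edgeR adjusted p = 0.0155) and without no-Cre uncrushed animal 4 (1.09, 0.0408), but not without both contradictory libraries (0.84, 0.159). In crushed mice it was called without no-Cre uncrushed animal 6 (edgeR adjusted p = 0.0499). With all 8 libraries together and crush in the model, it was 0.67 ± 0.22 (edgeR adjusted p = 0.0163). That call was lost without Cre crushed animal 35 (edgeR adjusted p = 0.0624), without Cre uncrushed animal 3 (0.0542) and with age as a covariate (0.0706).

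**Figure D2:**
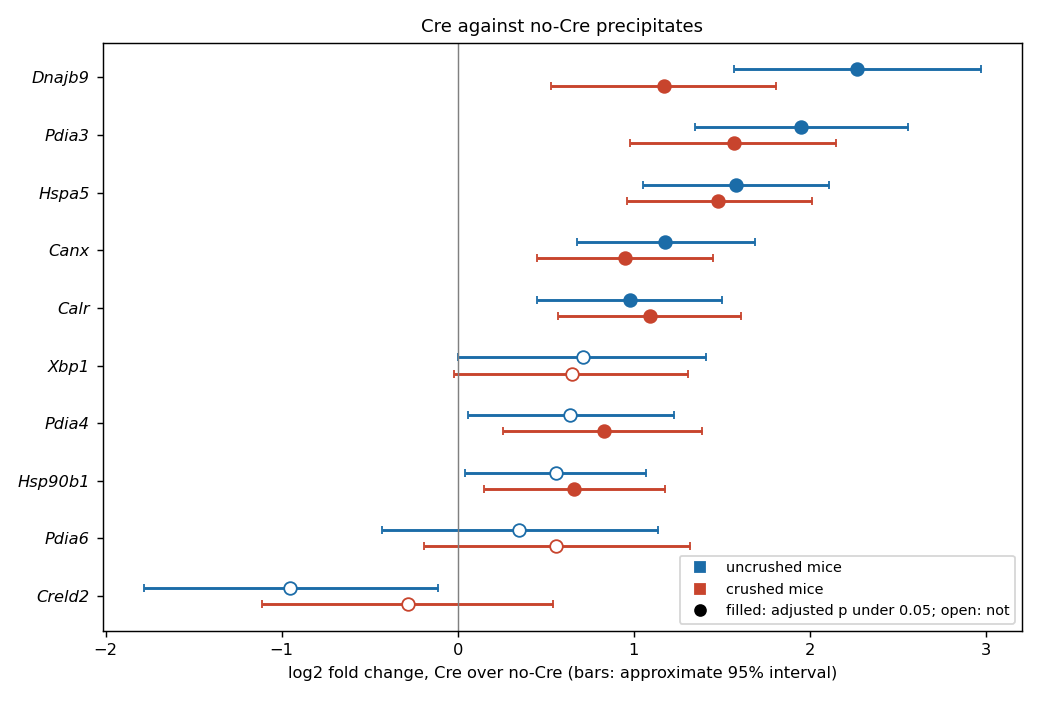
Log2 fold change of Cre over no-Cre for each gene (horizontal axis) in uncrushed and in crushed mice, with approximate 95% intervals from 2 animals per group; filled points have an adjusted p under 0.05. Dnajb9, Pdia3 and Hspa5 lie farthest to the right, Hsp90b1 and Pdia4 are filled in crushed mice only, which is no test of a difference between the states, and Creld2 lies left of 0.

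Over all 8 libraries 8 of the 10 genes were called higher with Cre, beside 28.7% of all genes called higher, 31.2% lower and 59.9% in either direction. Pdia6, at 0.46 ± 0.24 (edgeR adjusted p = 0.113), and Creld2, at -0.61 ± 0.28 (0.0755), were not called. Pdia6 was called higher without no-Cre uncrushed animal 4 (edgeR adjusted p = 0.0047), without both contradictory libraries (0.0112), with library size alone (0.0136) and with no filter (0.0442), and Creld2 was called lower without no-Cre crushed animal 51 (0.0349). By position alone, 8 of the 10 in uncrushed mice had both Cre libraries above both no-Cre libraries and Creld2 had both below, where 36.2% of all genes lay above and 35% below. In crushed mice 9 lay above and Creld2 overlapped, beside 37.9% of all genes above and 40.3% below. The share of all genes with every Cre library above every no-Cre library, as described for single genes above, was not counted. Summed over the 10 genes, the level was 1330 to 1570 CPM in the Cre and 659 to 756 CPM in the no-Cre libraries. Grouping the 2 contradictory libraries by their genotype entry in place of the title left 0 of the 10 genes, and 0 of all genes, called in either state. In crushed mice, whose libraries keep their groups, this came from the shared spread and not from the estimates.

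Markers of other cell types moved with the same comparison. In uncrushed mice 7 of 8 motor neuron markers were higher with Cre, and lower were 8 of 8 oligodendrocyte, 8 of 8 astrocyte, 7 of 8 microglial, 7 of 8 endothelial, 5 of 8 meningeal fibroblast and 6 of 8 interneuron markers. Summed motor neuron markers were 7200 to 8620 CPM in the Cre uncrushed, 4990 to 5030 in the Cre crushed, 994 to 1640 in the no-Cre uncrushed (with Mnx1 at 0) and 458 to 782 in the no-Cre crushed libraries. In the same order of groups, oligodendrocyte markers summed to 720 to 889, 1120 to 1850, 6910 to 7910 and 4690 to 6510 CPM, and astrocyte markers to 239 to 256, 403 to 570, 1580 to 2700 and 2680 to 3470 CPM. Microglial markers summed to 7.03 to 8.18, 16 to 19.7, 61.6 to 115 and 146 to 159 CPM, endothelial markers to 29.7 to 44.5, 46.4 to 50.9, 271 to 338 and 242 to 314, fibroblast markers to 37.3 to 45.7, 46 to 50.8, 207 to 208 and 178 to 188, and interneuron markers to 184 to 215, 201 to 273, 623 to 686 and 478 to 624. Plasma cells, which rely on XBP1, were checked too. Of 8 plasma cell markers 2 had enough counts to be tested. Of these, 1 was called higher with Cre in uncrushed mice (median of the 2, 1.86) and 1 in crushed mice (median 1.47). The sum was 29 to 45, 61.9 to 91.1, 6.24 to 16.8 and 15.8 to 17.8 CPM in the same order of groups. Tnfrsf17 was at 0 in both libraries of every group but the Cre uncrushed. Mzb1 was at 0 in those of the Cre crushed and no-Cre uncrushed groups, and Derl3 in those of the no-Cre crushed group. The no-Cre precipitates thus held glial and vascular mRNA. The part of cell mixture in the differences above was not tested. In such bulk samples fewer cells of a type and less RNA per cell cannot be told apart.

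The balance among the 10 genes was compared with Hspa5 as the reference within each library, a ratio that does not depend on scaling between libraries. For every 100 Hspa5 counts, the 4 Cre libraries held 158 to 183 counts of Hsp90b1 and the 4 no-Cre libraries 249 to 417. Xbp1 had 8.05 to 11.2 against 12.8 to 25.3, and Creld2 2.06 to 3.61 against 5.15 to 17.4. For these 3 genes the arms did not overlap, with less per Hspa5 on tagged ribosomes. Hspa5 itself was higher with Cre, by a log2 fold change of 1.58 in uncrushed and 1.48 in crushed mice. A gene with a smaller difference therefore falls relative to Hspa5, and the ratios restate the differences given above. The share of all genes separated in this way was not counted. For Pdia6 the arms did not overlap either, but lay apart by less than the rounding, at 9.53 to 14.4 against 14.4 to 44.4. The arms overlapped for Calr (45 to 74.1 against 57.8 to 120), Canx (141 to 212 against 181 to 281), Dnajb9 (13.2 to 22.9 against 10.1 to 21.7), Pdia3 (55.4 to 61.1 against 37.1 to 58.5) and Pdia4 (10.5 to 14.8 against 13.7 to 29.8).

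**Figure D3:**
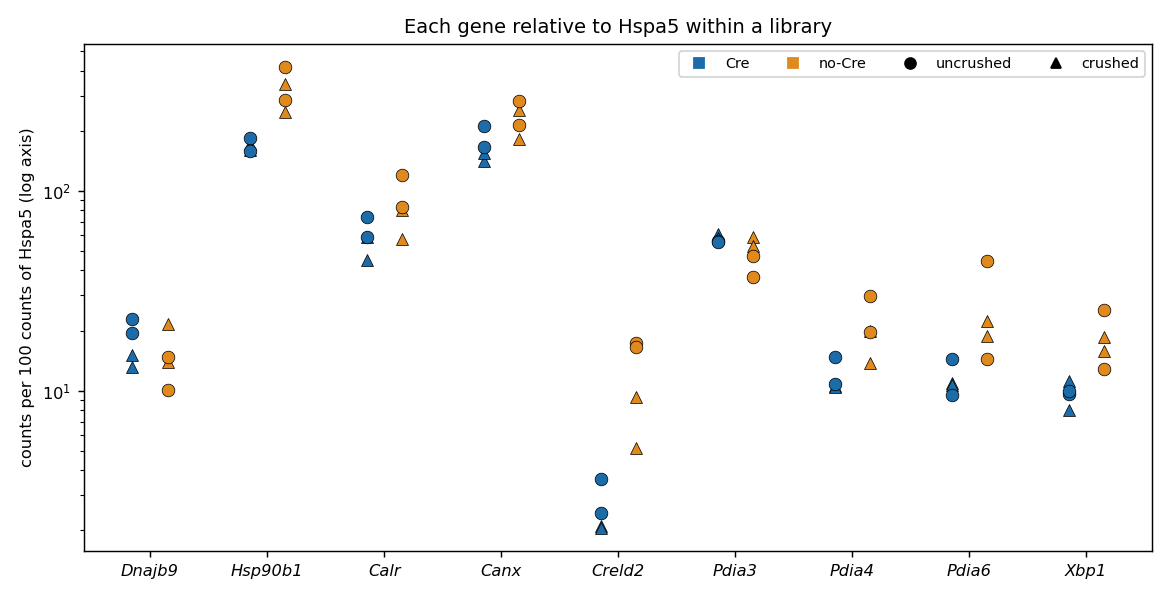
Counts of each gene per 100 counts of Hspa5 in the same library (vertical log axis), 4 Cre and 4 no-Cre libraries, circles for uncrushed and triangles for crushed mice. The 2 colours are apart for Hsp90b1, Creld2 and Xbp1, lie apart by less than the rounding for Pdia6 and overlap for the other 5 genes. Pdia3 in the Cre libraries spans only 55.4 to 61.1.

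On tagged ribosomes, none of the 10 genes was shown to change with crush, and the intervals were wide. With Cre, 0 of the 10 were called, beside 0.0723% of all genes (11 of 15208, 0.0395% higher and 0.0329% lower). DESeq2, which called 159 genes, called 0 of the 10. An unadjusted p under 0.05 in edgeR was found for 0 of the 10 and for 1421 of all 15208 genes. At that share, 0 of 10 says little of these genes in particular. The values ran from -0.51 for Dnajb9 to 0.15 for Pdia3, with a median of -0.12 against 0.03 over all genes. Hspa5 was at 0.06 ± 0.23 (edgeR adjusted p = 0.969), with an interval of -0.45 to 0.57, and its estimate ran from -0.14 without Cre uncrushed animal 10 to 0.84 by genotype entry over the alternatives. Xbp1 was at 0.01 ± 0.30 (edgeR adjusted p = 0.997, interval -0.64 to 0.66), and the animals of its groups, at 19.5 and 26.8 CPM before and 26.5 and 20.1 CPM after crush, covered the same range. Hsp90b1 was at 0.03 (interval -0.48 to 0.54), Pdia3 at 0.15 (interval -0.42 to 0.71) and Pdia6 at -0.05 (interval -0.79 to 0.69).

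The other 5 genes had both Cre crushed libraries below both Cre uncrushed libraries, where 23.9% of all genes did. Dnajb9 was at 35.9 and 32.9 CPM after crush and at 46.2 and 51.7 CPM without it, a log2 fold change of -0.51 ± 0.28 (unadjusted p = 0.0952 and adjusted p = 0.649 in edgeR, interval -1.12 to 0.10). Creld2 was at -0.44 (interval -1.25 to 0.37), Calr at -0.28 (interval -0.79 to 0.23), Canx at -0.26 (interval -0.76 to 0.23) and Pdia4 at -0.20 (interval -0.74 to 0.35). None of these passed the test. Without the contradictory libraries the 10 values ran from -0.51 for Creld2 to 0.35 for Pdia3, with edgeR adjusted p of 0.671 or more. With library size alone as the scaling, Calr, Canx and Pdia4 were positive, at 0.16, 0.17 and 0.24, when the median of all genes was 0.47. In the same comparison the motor neuron markers had a median of -0.32, and the medians of oligodendrocyte (0.87), astrocyte (0.80), microglial (0.91), endothelial (1.38), fibroblast (0.25) and interneuron markers (0.33) were positive, with 0 markers of any list called. The part of that shift in the lower values was not tested.

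In the no-Cre precipitates 0 of the 10 were called after crush, also beside 0.0723% of all genes (0.0197% higher and 0.0526% lower). DESeq2 called 107 genes, 0 of the 10 among them. An unadjusted p under 0.05 in edgeR was found for 1 of the 10, beside 1941 of all 15208 genes. That 1 gene was Creld2, at 4.75 and 7.66 CPM after crush and 12.1 and 14.4 CPM without it, a log2 fold change of -1.11 ± 0.39 (unadjusted p = 0.0151 and adjusted p = 0.314 in edgeR). Dnajb9, at 0.59 ± 0.32 (edgeR adjusted p = 0.468), and Pdia3, at 0.53 ± 0.27 (0.443), had both crushed libraries above both uncrushed ones, where 19.9% of all genes did. Creld2, Calr (-0.39, interval -0.91 to 0.14) and Pdia4 (-0.38, interval -0.98 to 0.22) had both below, where 19% of all genes did. With library size alone Pdia3 was at 1.51 and was called (edgeR adjusted p = 0.0477), when the median of all genes was 0.94. Hspa5 was at 0.15 (interval -0.37 to 0.68), Hsp90b1 at -0.07 (interval -0.59 to 0.44), Canx at -0.03 (interval -0.53 to 0.47), Xbp1 at 0.07 (interval -0.65 to 0.79) and Pdia6 at -0.26 (interval -1.06 to 0.54). The 10 values without the contradictory libraries ran from -1.22 for Creld2 to 0.50 for Pdia6, with edgeR adjusted p of 0.416 or more.

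**Figure D4:**
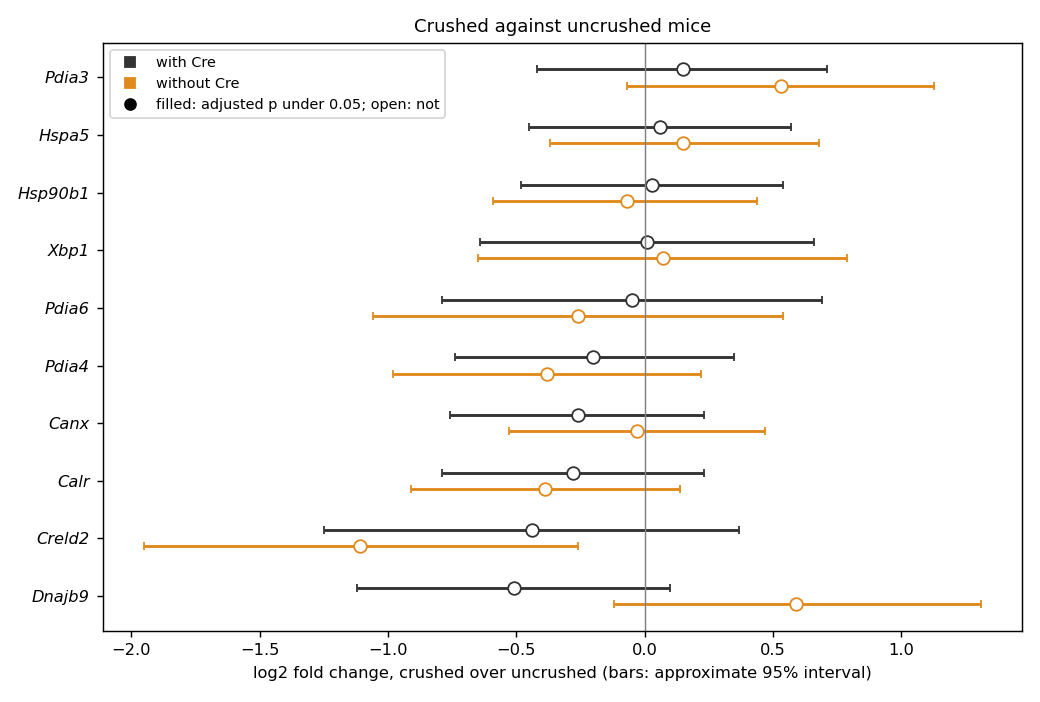
Log2 fold change of crushed over uncrushed mice for each gene (horizontal axis), with and without Cre, with approximate 95% intervals from 2 animals per group; all points are open because none had an adjusted p under 0.05. Every interval but that of Creld2 without Cre, which lies lowest at -1.11, contains 0, and Dnajb9 lies on opposite sides of 0 in the 2 arms.

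Whether crush acted differently on tagged ribosomes was tested as the difference of the crush effects with and without Cre. Of all 15208 genes 0 were called in that test (edgeR, 0%), 905 had an unadjusted p under 0.05, and DESeq2 called 15. Dnajb9 was the 1 gene of the 10 with an unadjusted p under 0.05, at -1.10 ± 0.43 (unadjusted p = 0.0252 and adjusted p = 0.83 in edgeR, interval -2.04 to -0.16). Its no-Cre uncrushed level rests on 18 and 48 counts. Leaving out each library in turn moved this value between -1.65 and -0.75, and without the contradictory libraries it was -0.68 (edgeR adjusted p = 0.759). The other 9 had differences from -0.39 for Pdia3 to 0.66 for Creld2, all with intervals that contain 0.

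The rest of the ER folding and quality control machinery was described with lists of related genes, beside the 20.6% of all genes called higher and 21.9% lower with Cre in uncrushed mice, and 21.6 and 21.3% in crushed mice. Shares of a list near these say nothing particular of it. Other ER chaperones and co-chaperones had 4 of 20 tested genes higher and 2 lower with Cre in uncrushed mice (20% and 10%, median 0.58) and 7 higher and 2 lower in crushed mice (35% and 10%, median 0.77). Creld1, a membrane relative of Creld2, was among the higher ones, at 1.70 ± 0.26 in uncrushed (edgeR adjusted p = 0.000554) and 2.2 ± 0.26 in crushed mice (0.000165), on the opposite side of 0 from Creld2. Fkbp2, a prolyl isomerase, was at 1.71 in uncrushed mice, and Dnajc1, another J-domain protein of the ER, was lower at -1.97 in crushed mice. Among genes of ER disulfide formation 5 of 14 were higher and 1 lower in uncrushed (35.7% and 7.14%, median 0.38) and 4 higher and 1 lower in crushed mice (28.6% and 7.14%, median 0.57). Txndc5, a disulfide isomerase, led at 2.03 and 1.44, followed by the membrane-bound Tmx4 at 1.31 and 1.22. The uncrushed value of Tmx4 was 1.16 and no longer called without the contradictory libraries (edgeR adjusted p = 0.0531), while Creld1 (1.89), Fkbp2 (1.95) and Txndc5 (1.96) were still called.

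The glycoprotein folding cycle, in which Calr, Canx and Pdia3 act, had 3 of 16 other genes higher and 1 lower in uncrushed (18.8% and 6.25%, median 0.40) and 6 higher and 1 lower in crushed mice (37.5% and 6.25%, median 0.64). Dad1, a subunit of the oligosaccharyltransferase, was at 1.58 in uncrushed mice, and Prkcsh, a subunit of glucosidase II, at 0.92 in crushed mice. Uggt2, a relative of the enzyme that returns misfolded glycoproteins to the lectins, was lower at -1.78 and -1.30. Dad1 (1.51, edgeR adjusted p = 0.0579) and Uggt2 (-1.46, 0.0815) were not called in uncrushed mice without the contradictory libraries. In crushed mice the call of Prkcsh was lost without any 1 of the 4 crushed libraries, with age and with library size alone (edgeR adjusted p 0.0522 to 0.0995). The crushed call of Uggt2 was lost without Cre crushed animal 35 (edgeR adjusted p = 0.18), without no-Cre crushed animal 51 (0.0831), with age (0.161) and with library size alone (0.062).

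ER-associated degradation had 11 of 22 higher in both states (50%), with 0 lower in uncrushed (median 0.76) and 2 lower in crushed mice (9.09%, median 0.68). Vcp, the ATPase that pulls substrates from the membrane, was at 1.73 and 1.97, the ubiquitin-conjugating enzyme Ube2g2 at 2.50 in uncrushed mice, and the membrane-anchored Ube2j1 at 1.72 in crushed mice. Translocon and signal peptidase genes had 6 of 19 higher and 0 lower (31.6%, median 0.75) and, in crushed mice, 7 higher and 1 lower (36.8% and 5.26%, median 0.71), among them Spcs1 (2.06) and Srpr (1.42) in uncrushed and Srp72 (1.22) and Srp54a (3.72 ± 0.71) in crushed mice. Srp54a has near-identical copies, among which RSEM may have divided the reads, so its value is uncertain. In uncrushed mice without the contradictory libraries Srpr was at 1.15 and not called (edgeR adjusted p = 0.053), and Vcp (1.59), Ube2g2 (2.9) and Spcs1 (2.29) were still called.

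Of 14 tested sensors and genes of their signalling, 3 were higher and 2 lower in uncrushed (21.4% and 14.3%, median 0.07) and 1 higher and 2 lower in crushed mice (7.14% and 14.3%, median -0.19). Creb3, an ER-anchored transcription factor, was higher at 2.53 ± 0.55 (edgeR adjusted p = 0.00391) and 1.39 ± 0.44 (0.0264), and its relative Creb3l2 was lower at -1.18 ± 0.26 (0.00417) and -1.13 ± 0.25 (0.005). Leaving out each library in turn moved Creb3 between 2 and 3.29 in uncrushed mice and between 0.89 and 2.27 in crushed mice. The crushed call of Creb3 was lost without Cre crushed animal 35 (edgeR adjusted p = 0.118) or 52 (0.0639), without no-Cre crushed animal 51 (0.154) and with age (0.118). The call of Creb3l2 was lost without Cre uncrushed animal 10 in uncrushed mice (edgeR adjusted p = 0.0545), without Cre crushed animal 35 (0.102) or with age (0.0883) in crushed mice, and with library size alone in both (0.365 and 0.0726).

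Cytosolic chaperones, the counterpart outside the ER, had 15 of 20 higher in uncrushed (75%, median 1.97) and 16 in crushed mice (80%, median 1.69), with 0 lower. Hspb8 was at 3.56 and 3.62 and its partner Bag3 at 3.43 and 3.65, both above every value of the 10 ER genes. After crush, 0 genes of any of these 7 lists were called with or without Cre, and the genes with the smallest p values with Cre included Ube2g2 (-0.76, edgeR adjusted p = 0.365), Mesdc2 (0.62, 0.466), Dad1 (-0.71, 0.514) and Ppp1r15b (-0.53, 0.524). The lowest edgeR adjusted p of the 7 genes named by this rule was 0.445, for Ube2g2, without the contradictory libraries.

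**Figure D5:**
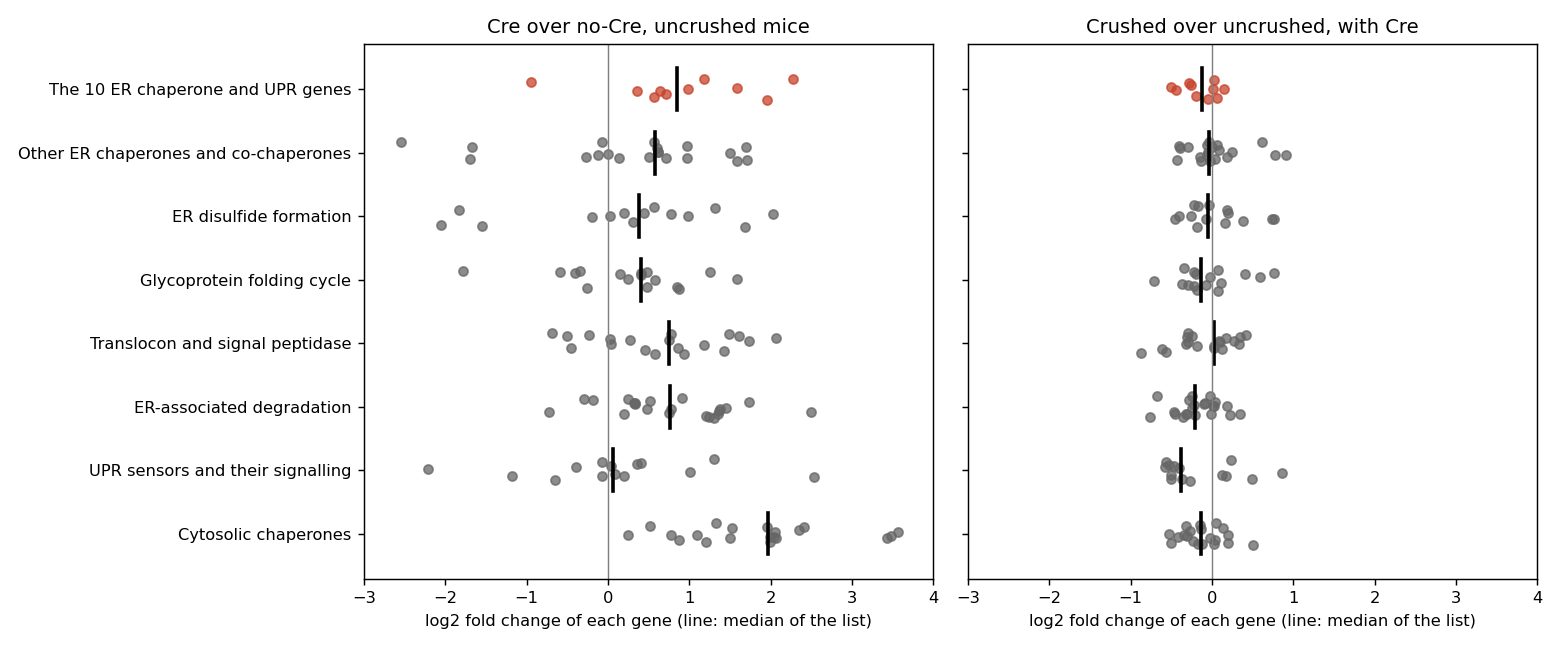
Log2 fold change of every tested gene (points) in the 10 ER genes and in 7 related lists, for Cre over no-Cre in uncrushed mice (left) and for crushed over uncrushed mice with Cre (right); lines are list medians. On the left the median of the 10 ER genes is 0.84, that of the sensors 0.07 and that of the cytosolic chaperones 1.97; on the right the medians run from -0.39 to 0.02.

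Genes with and without an exact match to the promoter motif shown above were among those called. Of the 6 genes with an ERSE, Hspa5, Calr and Canx were called higher with Cre in both states, Hsp90b1 in crushed mice, and Pdia6 and Creld2 in neither. Of the 4 without it, Pdia3 and Dnajb9 were called in both states, Pdia4 in crushed mice and Xbp1 in neither. The table holds 29 other genes with the motif, of which 12 had enough counts to be tested. Among these 0 were called higher and 1 lower with Cre in uncrushed mice, and 2 higher and 2 lower in crushed mice, beside the 20.6 and 21.9% of all genes called higher and lower in uncrushed and 21.6 and 21.3% in crushed mice. Syvn1, the ubiquitin ligase of ER-associated degradation, was 1 of the 2, at 1.95 ± 0.50 in crushed mice (edgeR adjusted p = 0.00983). The BiP co-chaperone Dnajc3 was at 0.23 ± 0.24 in crushed mice.

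Similarity of pattern was measured as the root mean square difference of centred log2 CPM over the 8 libraries, among 2488 genes with a mean of at least 50 CPM. Nearest to Hspa5 were Mast1 (0.109), Caprin1 (0.114), Ndrg3 (0.127), Dclk1 (0.132) and Gclm (0.132), where the median gene was at 0.613. Of the 10 genes themselves Pdia3 was nearest to Hspa5, at 0.216, followed by Canx (0.324), Dnajb9 (0.364) and Calr (0.406), and Creld2 was farthest, at 1.18. Xbp1 was nearest to Hsp90b1 (0.206), Pdia6 (0.277) and Pdia4 (0.278), and outside the 10 to Eif2s2 (0.144), Eif4g3 (0.15), Cdc27 (0.161), Reps2 (0.164) and Cul3 (0.166), with a median gene at 0.546. These distances describe 8 libraries whose levels differ mainly between the Cre and no-Cre arms.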

How the data were processed

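Ribosome-bound mRNA was sequenced from 8 mouse spinal cords, 2 per group. The authors' deposited gene tables give RSEM expected counts and TPM, made with Bowtie2 2.2.0 and RSEM 1.2.12 per the submitters' processing notes (build and annotation not given in the sources used here). Expected counts were rounded to whole numbers. Deposited TPM values and gene lengths (in bases, of the type other) served to order and describe genes within a library. Symbols were matched to 37607 of 38924 identifiers (96.6%), and all 202 list symbols were found, 4 by synonym. Counts were fitted in edgeR 4.0.16 (R 4.3.3) with filterByExpr (minimum count 10, minimum total 15), TMM and 1 mean per group over all 8 libraries (4 residual degrees of freedom); p-values are two-sided, adjusted over 15208 genes. An SE is the log2 fold change over the square root of F, and intervals (95%) derive from it; both are approximate. Counting intervals and detection floors hold counting error alone. The deposited values carry 0 unmapped columns. Gene lists were described by counts and medians; from each, the genes of at least 10 CPM with the smallest p were named (up to 2 with Cre against no-Cre, 1 for crush). The 10 genes and all lists were chosen with earlier results of these data known. Alternatives were DESeq2 1.42.0, its size factors in edgeR, library size alone, leaving out mitochondrially encoded genes, no filter, only the compared groups, the genotype entry, leaving out both contradictory libraries, age, and each library left out. Age as a covariate acts much like leaving out Cre crushed animal 35. The scripts were tested on simulated counts.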

Additional observations from a re-analysis of the deposited data

How the results depend on the processing

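No paired analysis was possible because each mouse number belongs to a single group. Depth limits Creld2 and, without Cre, Dnajb9 most. Of the 10 genes, 5 were called higher with Cre in uncrushed mice, 9 with library size alone and 0 by genotype entry (5 to 7 without a library); in crushed mice 7, 0 by genotype entry, 4 with age as a covariate and 3 to 9 without a library (3 without Cre crushed 52, 4 without Cre crushed 35 or no-Cre crushed 51); over all libraries 8, 0 by genotype entry and 7 to 9 without a library, with 1 lower (range 0 to 1) without no-Cre crushed 51. With library size alone 1 of the 10 was called after crush without Cre.

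Of all genes, 6468 were called with Cre in uncrushed mice, 3299 without the contradictory libraries, 0 by genotype entry and 3802 to 6512 without a library (3802 without Cre uncrushed 3). In crushed mice 6521 were called, 0 by genotype entry, 2758 with age and 2733 to 7392 without a library (2733 without Cre crushed 35, 4041 without no-Cre crushed 51, 4250 without Cre crushed 52). Over all libraries 9102 were called, and 0 by genotype entry. For crush with Cre 11 were called, 159 by DESeq2, 281 with no filter, 126 with only the compared groups, 0 by genotype entry, 5 without the contradictory libraries, 3 with age and 7 to 15 without a library (7 without any 1 of the Cre libraries). For crush without Cre 11 were called, 1 with DESeq2 size factors, 107 by DESeq2, 1204 with library size alone, 338 with no filter, 2 with only the compared groups and with age, 0 by genotype entry or without the contradictory libraries, and 0 to 7 without a library (0 without no-Cre crushed 58, Cre uncrushed 10 or Cre uncrushed 3). For the difference of the crush effects 0 were called, 15 by DESeq2 and 87 with no filter. Library size alone shifted the median of all genes by 0.68 (Cre, uncrushed), 0.14 (Cre, crushed), 0.40 (Cre, all), 0.44 (crush with Cre), 0.96 (crush without Cre) and -0.53 (difference). The share of higher genes among those called went from 48.5 to 76.5%, 50.4 to 59.6%, 47.9 to 63.6%, 54.5 to 72.7% and 27.3 to 99.6% in the first 5 of these, while the medians of the 10 genes went from 0.84 to 1.56 and from 0.89 to 1.07 in the first 2. The split was 0% with DESeq2 size factors for crush without Cre (1 call) and 65.4% with DESeq2 for crush with Cre.

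In the crush comparisons directions changed by genotype entry, with library size alone, without the contradictory libraries and without single libraries. With Cre in uncrushed mice they changed chiefly by genotype entry, which exchanges 2 libraries between the uncrushed groups. The crushed groups keep their libraries, so calls with Cre in crushed mice were lost there through the shared spread. With Cre in uncrushed mice that gave Canx -0.006, Hsp90b1 -0.02, Xbp1 -0.05, Dnajb9 -0.27, Hspa5 -0.38, Pdia3 -0.43, Txndc5 -0.0087, Bag3 -0.01, Vcp -0.1, Tmx4 -0.21, Hspb8 -0.27, Srpr -0.3, Creb3l2 0.02 and Uggt2 0.11. For crush with Cre it gave Pdia4 0.01, Calr 0.12, Canx 0.21, Dnajb9 0.35, Spcs1 0.0098 and Hsp90ab1 0.06, and without Cre Xbp1 -0.36, Pdia3 -0.95, Hspa5 -1.02 and Dnajb9 -1.08. For the difference it gave Pdia6 -0.08, Creld2 -0.17, Xbp1 0.69, Canx 0.95, Dnajb9 1.43, Hspa5 1.86 and Pdia3 2. Library size alone reversed, for crush with Cre, Erp29 (0.04), Calr (0.16), Canx (0.17), Pdia4 (0.24) and Pdia6 (0.39), without Cre, Calr (0.57), Pdia4 (0.57), Pdia6 (0.78), Hsp90b1 (0.89) and Canx (0.92), and for the difference Pdia4 (-0.33), Pdia6 (-0.39), Calr (-0.42) and Hsp90b1 (-0.43). Leaving out the contradictory libraries reversed, for crush without Cre, Hspa5 (-0.00025), Canx (0.0022), Hsp90b1 (0.04) and Pdia6 (0.5), and for the difference Pdia6 (-0.64), Pdia3 (0.11) and Hspa5 (0.28). Age reversed Xbp1 for crush with Cre (-0.25), and no filter Canx for crush without Cre (0.01). None of the reversed values was called in either setting for the crush comparisons; the cause was not tested.

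Leaving out each library in turn also crossed 0 for Creld2 with Cre in crushed mice (-0.56 to 0.14) and Pdia6 in uncrushed mice (-0.11 to 1.15). For crush with Cre it did for Hspa5 (-0.14 to 0.28), Hsp90b1 (-0.06 to 0.14), Pdia3 (-0.04 to 0.35), Pdia6 (-0.14 to 0.04) and Xbp1 (-0.21 to 0.26), and without Cre for Hspa5 (-0.02 to 0.34), Hsp90b1 (-0.23 to 0.07), Canx (-0.19 to 0.12), Pdia6 (-0.78 to 0.49) and Xbp1 (-0.22 to 0.39). For the difference it did for Hspa5 (-0.29 to 0.12), Hsp90b1 (-0.03 to 0.26), Calr (-0.13 to 0.31), Pdia6 (-0.54 to 0.73) and Xbp1 (-0.39 to 0.23).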

Other observations

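The gene length in the deposited tables is an average over the transcripts that RSEM assigned reads to, and it varied between libraries for several of the 10 genes, most for Canx. For Canx, with 5 transcripts in the tables, the deposited length ran from 1318 bases in no-Cre uncrushed animal 4 to 3438 bases in Cre crushed animal 35. For Calr, with 4 transcripts, it ran from 1159 to 1741 bases in no-Cre uncrushed animal 4 and Cre crushed animal 52. The Canx length was 1628 and 2072 bases in the Cre uncrushed animals 10 and 3, 3438 and 3062 in the Cre crushed animals 35 and 52, 1318 and 2162 in the no-Cre uncrushed animals 4 and 6, and 2890 and 1918 in the no-Cre crushed animals 51 and 58. With Cre, both crushed libraries were above both uncrushed ones. Whether these lengths reflect transcript use was not tested. The length of Pdia6 ran from 1452 to 2175 bases and that of Xbp1 from 1573 to 2090, whereas Hsp90b1 stayed between 2741 and 2843. Dnajb9, Creld2 and Pdia4 each have 1 transcript in the tables.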
